A study of Mus musculus with 4 samples.

Results

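The loci described here are the oldest LINE-1 remnants that the tables of repeat transcription list in mouse cells lacking Lsh: every locus of the LINE tables whose repeat name begins with L1ME, with HAL1, or with L1M directly followed by a digit. The rule used the name alone and no measured value. It found 21193 members among the 145916 LINE loci listed with a read in at least 1 of the 4 libraries, namely 12411 of L1M followed by a digit, 6934 of L1ME and 1848 of HAL1. With the tables of flanking intervals included, the rule found 52902 of 359255 loci. Strand-specific, paired-end RNA-seq had been made from 4 groups of C57BL/6J origin, with 1 library in each: WT fibroblasts, Lsh-/- fibroblasts, WT E13.5 whole embryos and Lsh-/- E13.5 whole embryos. The fibroblasts were adult tail-tip cells transformed with SV40 and grown in culture, and each genotype was 1 such line. How many embryos went into a library was not given in the sources used here. Because each group held 1 library, no test between genotypes was possible, and every ratio below compares the reads of 2 libraries.

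LINE-1 elements are retrotransposons that copy themselves through RNA. The L1M subfamilies were active before the rodent lineages split, and their copies are now short fragments that carry many mutations and no intact promoter or reading frame. HAL1 elements are relatives that kept only the first LINE-1 reading frame. Lsh, the product of the Hells gene, is a chromatin remodeller of the SNF2 family that is needed for DNA methylation at many repeats. Methylation falls on CpG dinucleotides, and a methylated CpG that mutates usually becomes TpG or CpA, so old copies have lost most of their CpG. The comparison asks whether such remnants gained or lost transcripts when Lsh was missing.

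The sequences of 6 members are shown because the strongest or the largest values below lie on them. Each was read from the NCBIM37 (mm9) assembly on the strand of the element, 5′ to 3′, with CpG in capitals. The HAL1-3A_ME element within Malat1 (chr19:5801755-5801952, minus strand) had the most counts of all members:
HAL1-3A_ME in Malat1: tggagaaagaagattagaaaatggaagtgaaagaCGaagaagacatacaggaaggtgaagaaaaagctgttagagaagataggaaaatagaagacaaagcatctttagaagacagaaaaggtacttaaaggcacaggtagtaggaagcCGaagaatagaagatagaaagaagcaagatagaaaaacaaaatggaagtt
The next pair had no read in either WT library and is shown by the first 300 bases of each element. The L1MEg element lies between genes (bases shown chr6:109649953-109650252, minus strand) and has no CpG in its 312 bases, and the L1M5 element lies between genes near Snrpn (bases shown chr7:66922335-66922634, plus strand) with 1 CpG in its 343 bases, outside the stretch shown:
L1MEg on chromosome 6: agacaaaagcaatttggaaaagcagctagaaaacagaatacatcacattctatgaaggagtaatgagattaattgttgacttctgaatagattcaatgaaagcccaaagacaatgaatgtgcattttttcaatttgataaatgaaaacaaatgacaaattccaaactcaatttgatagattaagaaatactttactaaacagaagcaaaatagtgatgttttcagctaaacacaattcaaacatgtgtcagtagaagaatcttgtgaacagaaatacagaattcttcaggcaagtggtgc
L1M5 near Snrpn: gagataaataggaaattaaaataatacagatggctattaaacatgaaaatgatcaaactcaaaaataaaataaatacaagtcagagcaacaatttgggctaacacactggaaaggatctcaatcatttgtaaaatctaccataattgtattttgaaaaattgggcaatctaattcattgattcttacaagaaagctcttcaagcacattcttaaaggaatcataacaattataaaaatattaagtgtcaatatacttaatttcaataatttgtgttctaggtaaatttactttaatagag
The L1M2 element near Picalm (chr7:97273015-97273305, plus strand) was higher without Lsh in both tissues:
L1M2 near Picalm: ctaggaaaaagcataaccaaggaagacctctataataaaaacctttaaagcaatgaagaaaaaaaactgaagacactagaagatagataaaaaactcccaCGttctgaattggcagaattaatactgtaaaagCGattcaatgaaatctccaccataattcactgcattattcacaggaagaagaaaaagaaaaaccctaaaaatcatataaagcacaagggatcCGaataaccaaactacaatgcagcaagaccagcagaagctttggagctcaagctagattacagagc
The last pair lost nearly all reads in Lsh-/- embryos, an L1MEg element in an exon of Gm17431 (chr5:5781495-5781571, minus strand) and an L1ME4a element in an intron of Mon1a (chr9:107800526-107800578, plus strand):
L1MEg in Gm17431: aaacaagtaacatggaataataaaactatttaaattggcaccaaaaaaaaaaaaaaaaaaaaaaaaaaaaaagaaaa
L1ME4a in Mon1a: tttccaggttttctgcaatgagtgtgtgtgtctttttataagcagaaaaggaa

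The members were short and poor in CpG, as were the classes nearest in age. Their median width was 199 bp, against 232 bp for L1MA and L1MB, 205 bp for L1MC and L1MD, 131 bp for L2 and 996 bp for the young L1Md elements. They held 0.63 CpG per 100 bp, and 37.3% had none. L1MC and L1MD loci held 0.70 per 100 bp and 34.2% had none, and 36.9% of L2 loci had none, whereas L1Md elements held 0.92 per 100 bp and 4.18% had none. HAL1 members were the shortest, with a median of 153 bp, and the richest in G and C, with a median of 42.1% against 35.7% for L1ME and 35.3% for L1M followed by a digit. Against the GENCODE vM1 annotation, 74.0% of the placed members lay in introns, 22.4% between genes and 3.53% over an exon. Of the members within genes, 65.9% ran opposite to the gene. Between 8901 and 12159 members were listed per library, and most had few reads: a single read was all that 40.7% of them had in WT fibroblasts, 36.3% in Lsh-/- fibroblasts, 21.2% in WT embryos and 14.4% in Lsh-/- embryos.

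The libraries differed in depth. The 6 tables of each library summed to 29787223 counts in WT fibroblasts, 19216257 in Lsh-/- fibroblasts, 33904311 in WT embryos and 32784804 in Lsh-/- embryos. Lsh itself could be read only where a flanking interval met an exon of Hells, in 14 intervals. Of these, 2 held 636 and 301 counts in WT fibroblasts, 273 and 154 in WT embryos and none in either Lsh-/- library, 2 more were lower in both Lsh-/- libraries, and the other 10 held reads in all 4 libraries, so that reads of the gene were missing over a part of it. Flanking intervals on chromosome Y gave 12 counts for WT but 5402 for Lsh-/- fibroblasts, while the embryos were alike at 19973 and 20654. The 2 fibroblast lines thus differed in reads from chromosome Y as well as in genotype, and the 2 differences cannot be told apart here. Among marker genes read where a flanking interval met an exon, 6 of 7 fibroblast markers could be read. Their summed level was 8078 CPM (counts scaled to the library size, as below) in WT and 6219 in Lsh-/- fibroblasts. Most of it was Vim, with 110360 and 73319 counts. Of the 6, 4 were lower in Lsh-/- fibroblasts, while Col3a1 (4188 and 9082 counts) and Fn1 (19418 and 27930) were higher. The 4 muscle markers summed to 0.103 and 3.18 CPM there, with Actc1 and Myog at 0 in WT, and the 2 readable hepatoblast markers to 0.0513 and 2.24, with Alb at 0 in both. In embryos the hepatoblast markers Afp and Alb fell from 116.8 to 14.4 CPM and the 3 readable neural markers from 71.9 to 47.7 in sum, while the muscle markers stood at 580.0 and 611.1. Of the 3 neural markers, 2 were lower, and Dcx was higher, with 372 and 410 counts. The 2 readable keratinocyte markers summed to 10.9 and 7.25 CPM, with Krt5 at 0 in Lsh-/- embryos. In whole embryos and lines of this kind, fewer cells of a type and less RNA per cell cannot be told apart.

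The summed level of the members differed little between genotypes on the scale used here. In WT fibroblasts they took 68434 counts and in Lsh-/- fibroblasts 67186, or 14.3% and 14.7% of all counts on LINE loci. In embryos they took 146176 and 137730 counts, or 17.1% and 17.0%. Scaled to the library size (trimmed mean of M-values over the flanking intervals), this was 3513 and 3340 CPM in fibroblasts and 5404 and 5286 in embryos. The embryo difference on the log2 scale was -0.03 (95% counting interval -0.04 to -0.02). The fibroblast difference of -0.07 (-0.09 to -0.06) turned to 0.04 with the total of the LINE table as the library size and to 0.61 with that of all 6 tables. Much of it sat on few loci. The HAL1-3A_ME element in Malat1 alone gave 5.04%, 4.19%, 7.77% and 8.73% of member counts in WT fibroblasts, Lsh-/- fibroblasts, WT embryos and Lsh-/- embryos, and the 100 loci with the most counts gave between 37.9% and 41.8%.

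Members over exons were few but carried about as many reads as those in introns. The 748 exonic members gave 42.5% and 43.1% of member counts in WT and Lsh-/- fibroblasts and 45.2% and 46.2% in embryos, and the intronic members 47.2%, 42.1%, 45.7% and 44.3%. Their median level in WT fibroblasts was 2.11 CPM per kb, against 0.505 in introns and 0.406 between genes, taken over the loci listed there. Within exons the level was highest in 3′ untranslated regions, with a median of 8.26 CPM per kb over 188 loci. Orientation to the gene made little difference to this level. In WT fibroblasts the median was 2.27 CPM per kb for exonic members opposite to their gene and 1.88 for those in the same orientation, and 0.498 and 0.524 in introns. Whether the authors' counting used the strand of the reads was not given in the sources used here, so transcripts of a gene and of an element within it cannot be told apart.

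In fibroblasts the difference between genotypes varied with where the members lay, although the contexts were not tested against each other. All 4753 members between genes summed to 6983 counts without and 9913 with the loss of Lsh in fibroblasts, 358.4 and 492.7 CPM, a log2 difference of 0.46 (95% counting interval 0.41 to 0.50). The 15672 intronic members summed to 32309 and 28255 counts, a log2 difference of -0.24 (-0.26 to -0.22), which turned to 0.44 when the libraries were scaled by the total of all 6 tables. The exonic members summed to 29110 and 28965 counts, a difference of -0.05 (-0.08 to -0.03) that turned to 0.06 with the total of the LINE table as the library size and to 0.63 with that of the 6 tables. The intergenic sum was higher without Lsh under all 4 scalings, between 0.46 and 1.14. The number of loci listed is not scaled to the depth of the library, and many of them had a single read. From WT to Lsh-/- fibroblasts it went from 1517 to 1794 between genes and from 8877 to 6543 in introns. From WT to Lsh-/- embryos it fell in both, from 2171 to 1818 and from 9361 to 7923. The summed counts in embryos differed little, by 0.03 (-0.01 to 0.06) between genes, which turned to -0.02 with DESeq2's size factors. In introns they differed by -0.08 (-0.09 to -0.06) and over exons by 0.00 (-0.02 to 0.01). These intervals, here and below, cover counting error only and say nothing of the spread between animals or cultures.

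**Figure D1:**
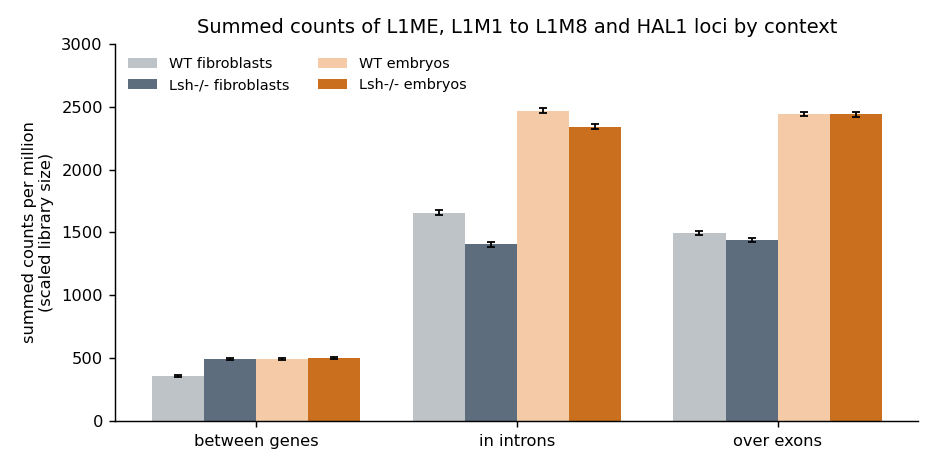
Summed CPM of all listed members, by annotated context and library (bars, 1 library each, with 95% Poisson intervals for counting error only). Between genes the level was 358.4 in WT and 492.7 in Lsh-/- fibroblasts, while the embryo pair stood at 491.9 and 502.0.

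Locus by locus, a member was read where its pair of libraries held 10 or more counts, and was called higher or lower where its log2 ratio (Lsh-/- over WT, with a prior count of 0.125) passed 1 and the exact 95% counting interval left out 0. A member with no WT read passed the minimum only through its Lsh-/- reads, so such counts describe the loci and are no support for a direction. In fibroblasts 2004 members had enough counts. Of these, 235 (11.7%) were higher and 174 (8.68%) lower, beside 16.7% higher and 9.22% lower over all 14058 LINE loci. With the 6-table total as the library size the calls became 485 higher and 44 lower. The median log2 ratio was 0.00, against 0.09 for all LINE loci, and 62.3% lay within 1 of no change. The study's own limit, a log2 change of 5, was passed upwards by 79 members (3.94%) and downwards by 7, beside 8.74% and 1.04% of all LINE loci. No WT read was found at 78 of the 79.

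In embryos 3978 members had enough counts, of which 448 (11.3%) were higher and 530 (13.3%) lower, beside 13.0% and 12.9% of all 24989 LINE loci. The median was -0.06, against 0.04 for all LINE loci. Here 80 members (2.01%) passed 5 and 116 (2.92%) passed -5, beside 3.09% and 2.89% of all LINE loci. The shares of higher calls lay below the background in both tissues, and those of lower calls lay close to it. Few calls were left with an allowance for variation between animals, which was assumed and not measured. With a biological coefficient of variation of 0.4 in the exact test of edgeR, 42 members were higher and 1 lower in fibroblasts. Over all LINE loci the shares were 5.46% and 0.277%. Of the 42, 34 lay between genes, among 251 tested there, and this share was not taken over all LINE loci. Members with no WT read passed the minimum through Lsh-/- reads and could come out only as higher, so these counts are a description. In embryos the same test gave 2 higher and 2 lower, beside 0.228% and 0.048% of all LINE loci.

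**Figure D2:**
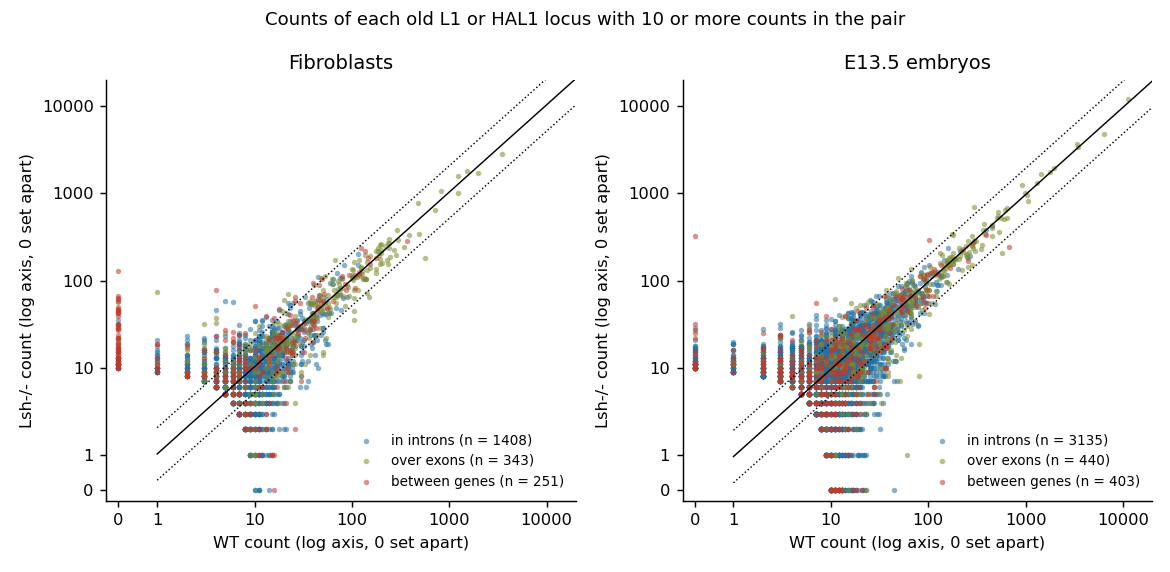
Counts of each member with 10 or more counts in the pair, WT on the x axis and Lsh-/- on the y axis (log axes, with 0 set apart), coloured by context; the solid line marks equal scaled counts and the dotted lines a log2 ratio of 1 or -1. A column of fibroblast loci between genes stands at a WT count of 0, reaching 128 counts in the Lsh-/- library, and the exonic loci with the most counts lie close to the line in both tissues.

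By context, 85 of 251 members between genes (33.9%) were called higher in fibroblasts and 19 (7.57%) lower, with a median log2 ratio of 0.43. Members with no WT read, which passed the minimum through Lsh-/- reads, enter this median. With zeros set at a floor of 3 counts it was 0.44. That setting leaves such loci on the same side of the median, so it is no check of it. In introns 119 of 1408 (8.45%) were higher and 129 (9.16%) lower, and over exons 31 of 343 (9.04%) were higher and 26 (7.58%) lower. Over all LINE loci 8.23% were higher and 10.6% lower in introns, and 11.4% and 6.30% over exons, so the intronic share of higher calls was about that of all LINE loci and the exonic share lay below it. All 57 members between genes that passed 5 had no WT read. Over all LINE loci between genes the higher share was larger still, at 46.5% of 2955. Among the classes nearest in age, 24.9% of 185 L1MA and L1MB loci, 17.4% of 121 L1MC and L1MD loci and 18.1% of 160 L2 loci between genes were called higher, values that are set side by side without a test. In embryos 58 of 403 members between genes (14.4%) were higher and 43 (10.7%) lower, beside 19.4% and 12.2% of all LINE loci there, and 348 of 3135 in introns (11.1%) were higher and 438 lower, beside 12.1% and 13.2% of all LINE loci in introns.

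**Figure D3:**
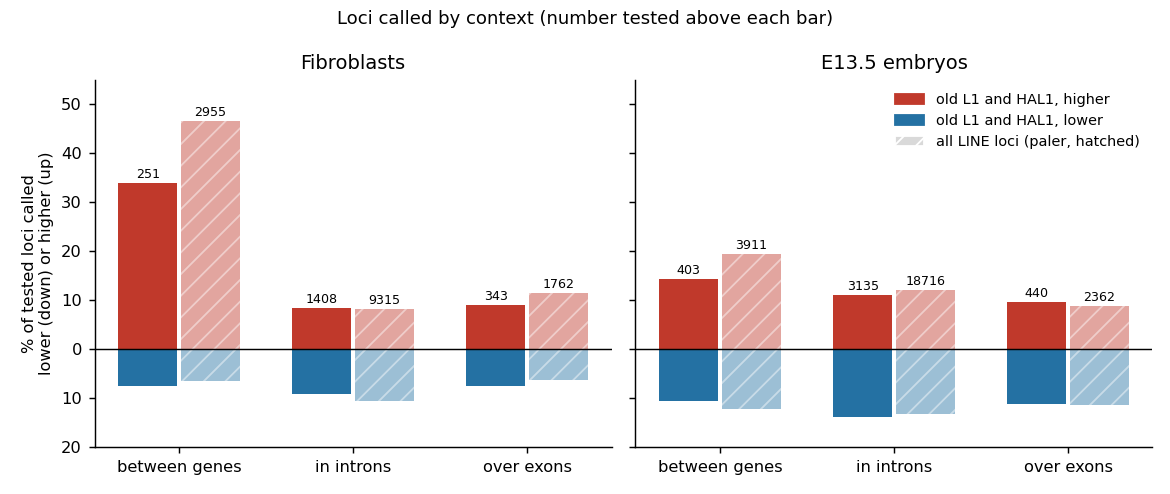
Percentage of tested loci called higher (upwards, red) or lower (downwards, blue) in Lsh-/- libraries by context, for the old L1 and HAL1 members (solid) and all LINE loci (paler, hatched), with the number tested above each bar. Members between genes in fibroblasts stand at 33.9% higher, under the 46.5% of all LINE loci between genes. In embryos the members between genes stand at 14.4% higher, under the 19.4% of all LINE loci there.

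The 3 kinds of name gave similar shares, which were not tested against each other. In fibroblasts 12.9% of 1221 L1M loci followed by a digit, 9.70% of 639 L1ME loci and 11.1% of 144 HAL1 loci were called higher, and 9.58%, 7.36% and 6.94% lower. Between genes the loci called higher were 63 of 167, 17 of 68 and 5 of 16. L1M2 and L1M5, which made up 12.9% and 17.0% of the listed members, gave 19 members each to the 79 that passed 5. The 79 were 3.94% of the members tested, beside 8.74% of all LINE loci. As 78 of them had no WT read and passed the count minimum through Lsh-/- reads, these counts are a description. Summed over all listed copies, L1M2 held 6269 and 6493 counts in WT and Lsh-/- fibroblasts and L1M5 8544 and 8491, log2 differences of 0.00 and -0.06. Among the subfamilies with 300 or more listed loci, L1M3 (3501 and 2839 counts) and L1M4b (1443 and 1171 counts) both stood at a log2 difference of -0.35, which turned to 0.33 with the 6-table total as the library size. Under that total L1ME3A stood at 0.86 and HAL1 at 0.85. Without its locus with the most counts, L1M3 stood at -0.19 on the first scale. In embryos these 17 subfamilies lay between -0.11 (L1MEg) and 0.13 (L1ME3A).

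CpG content was alike among called and uncalled members. In fibroblasts 36.6% of the members called higher, 34.5% of those called lower and 33.2% of those not called had no CpG, and 36.7% of those past 5. In embryos the shares were 35.3%, 30.9% and 34.3%. Median widths in fibroblasts were 242, 223 and 212 bp in the same order.

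The members with the most counts differed little between genotypes. The HAL1-3A_ME element (198 bp, chr19:5801755-5801952) in the exon of Malat1, a long non-coding RNA of the nucleus, held 3446 counts in WT fibroblasts, 2817 in Lsh-/- fibroblasts, 11362 in WT embryos and 12022 in Lsh-/- embryos. Its log2 ratio was -0.34 (95% counting interval -0.41 to -0.26) in fibroblasts and 0.14 (0.10 to 0.17) in embryos, and with the 6-table total as the library size the fibroblast ratio turned to 0.34. The L1MEe element (chrX:132781195-132781427) in a coding exon of Wbp5 held 1950, 1693, 6404 and 4834 counts in the same order, with ratios of -0.25, which turned to 0.43 with that total, and -0.35. The L1M2b element (chr15:82984783-82984915) in the 3′ untranslated region of Cyb5r3, a cytochrome b5 reductase, held 1217, 1560, 1974 and 1935. The L1ME3A element (chr14:66929704-66930283) in that of Trim35, of the tripartite motif family, held 819, 1076, 3360 and 3644 counts, and the L1MEe element (chrX:132704998-132705222) in a coding exon of Tceal8 held 1221, 1015, 3476 and 3376. None of these 5 loci was called in either tissue, although Trim35 passed 1 in fibroblasts, at 1.03, with the 6-table total as the library size.

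Among the members called higher in fibroblasts, those with the most counts lay in genes. The HAL1 element (chr6:42618952-42619326) in the 3′ untranslated region of Fam115a had 67 WT and 173 Lsh-/- fibroblast counts, a log2 ratio of 1.32 (0.91 to 1.75). Its downstream interval held 48 and 114 counts, a ratio of 1.20, and in embryos the element itself held 613 and 639. The L1M2 element (chr19:37292478-37292631) in an intron of March5, a mitochondrial ubiquitin ligase, went from 45 to 110 counts, a ratio of 1.24 (0.73 to 1.78), and its upstream interval from 339 to 687, a ratio of 0.97. The L1M5 element (chr2:145735053-145735246) in an exon of Naa20, the catalytic subunit of an N-terminal acetyltransferase, went from 53 to 114, a ratio of 1.06, while its downstream interval held 411 and 431, a ratio of 0.02. The L1MEb element (chr1:88243930-88244043) in the 3′ untranslated region of Ncl, which encodes nucleolin, went from 48 to 106, a ratio of 1.09, while its downstream interval held 4154 and 3469, a ratio of -0.31. In embryos none of these 4 was called, with ratios of 0.11, -0.65, -0.08 and 0.19.

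The members called lower in fibroblasts with the most counts lay in exons. The L1M3 element (chr1:40522005-40522145) in the 3′ untranslated region of Il1rl1, the receptor of interleukin 33, had 565 WT and 183 Lsh-/- fibroblast counts, a log2 ratio of -1.67 (-1.92 to -1.43), and -0.99 with the 6-table total as the library size. The L1M2 element (chrX:102234860-102235088) in the non-coding 5530601H04Rik went from 151 to 64 counts, a ratio of -1.28. The L1ME4a element (chr4:58448918-58449121) in the 3′ untranslated region of Lpar1, a receptor for lysophosphatidic acid, went from 143 to 72, a ratio of -1.04 (-1.47 to -0.62) that stood at -0.99 with DESeq2's size factors. The L1M3 element (chr10:58835746-58835914) in that of P4ha1, a subunit of the collagen prolyl hydroxylase, went from 105 to 45, a ratio of -1.27, and its upstream interval from 123 to 55, a ratio of -1.21. All 4 kept a negative ratio under each scaling, but none was called under the 6-table total.

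The fibroblast locus past 5 with the most counts was the L1MEg element on chromosome 6 (chr6:109649941-109650252, 840591 bp from Edem1). It held no count in WT and 128 in Lsh-/- fibroblasts, so it was at least 41.3-fold higher against a floor of 3 counts in the WT library, and 0 and 11 in embryos, at least 3.81-fold higher. Neither of its flanking intervals held a read. The L1M3 element (chr9:18127544-18127606) in the 3′ untranslated region of Naalad2 held 1 and 74 counts in fibroblasts, a ratio of 71.7 with a counting interval of 12.5 to 2868, but 25 and 23 in embryos. In fibroblasts its upstream interval held 1002 and 1087 counts and its downstream interval 0 and 30. In the other direction, the L1M5 element (chr2:151715459-151715745) 15055 bp from Rspo4, which encodes an enhancer of Wnt signalling, went from 16 counts to 0, at least 5.51-fold lower. The L1MEg element (chr7:140031663-140031971) in an intron of Fgfr2, a receptor of fibroblast growth factors, went from 14 to 0, at least 4.82-fold lower. Its upstream interval went from 19 to 8 counts, a log2 ratio of -1.28, while its downstream interval held 134 and 125.

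Some of the 57 fibroblast members between genes that passed 5 lay near each other. Counting members within 20 kb of each other once left 38 stretches on 16 chromosomes. The largest held 7 members, 5 of L1M5 and 1 each of L1M3 and L1M2, at chr9:98683610-98687859 near Prr23a. These held 24, 17, 29, 22, 15, 31 and 18 counts in Lsh-/- fibroblasts and none in WT, and in embryos no count except 3 on the L1M2 element in the Lsh-/- library. Their IAPLTR1_Mm neighbour past 5 lay 11496 to 15317 bp away. The stretch was picked for its size after the values were seen. Of the 85 called higher between genes, 64 stretches remained. Members that lay within 2 kb of each other and were both called mostly went the same way, in 19 of 20 pairs between genes, 18 of 21 in introns and 5 of 5 over exons. In embryos the counts were 6 of 7, 38 of 54 and 4 of 4. Members with no WT read passed the count minimum through Lsh-/- reads and could only be called higher. These pairs are therefore a description, and they were not counted over all LINE loci.

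Part of these members lay close to LTR loci that had also gained reads. LTR elements are retrotransposons flanked by long terminal repeats, among them the intracisternal A-particle (IAP) family, and 1269 LTR loci passed 5 in fibroblasts and 475 in embryos. This comparison was chosen after the values were seen, and it rests on the same 2 libraries for both kinds of locus. Of the 57 members between genes past 5, 24 (42.1%) lay within 20 kb of such an LTR locus, which was an IAP element for 19 of them. Of the other 194 members between genes, none did, and the nearest LTR locus of this kind was at a median of 871 kb for those not called. The 57 had no WT read and passed the count minimum through Lsh-/- reads, so these shares are a description. The same shares were not taken over all LINE loci. Without the filter on counts, 107 intergenic members within 20 kb of such a locus summed to 29 WT and 879 Lsh-/- fibroblast counts, 29.4-fold higher. Of these, 18 were listed in WT and 93 in Lsh-/- fibroblasts. The 107 include the 24 past 5, which had no WT read and up to 128 Lsh-/- counts each. The LTR loci were picked for their gain in the same library, so this sum is a description too. The 2575 farther away summed to 6954 and 9034 counts, 1.26-fold higher, or 0.33 on the log2 scale against 0.46 for all intergenic members. In embryos the 29 intergenic members within 20 kb summed to 19 and 442 counts, of which 326 lay on the L1M5 element near Snrpn, and the 3165 farther away to 13287 and 12637. In introns of fibroblasts, 63 members within 20 kb held 102 and 176 counts, 1.67-fold higher.

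**Figure D4:**
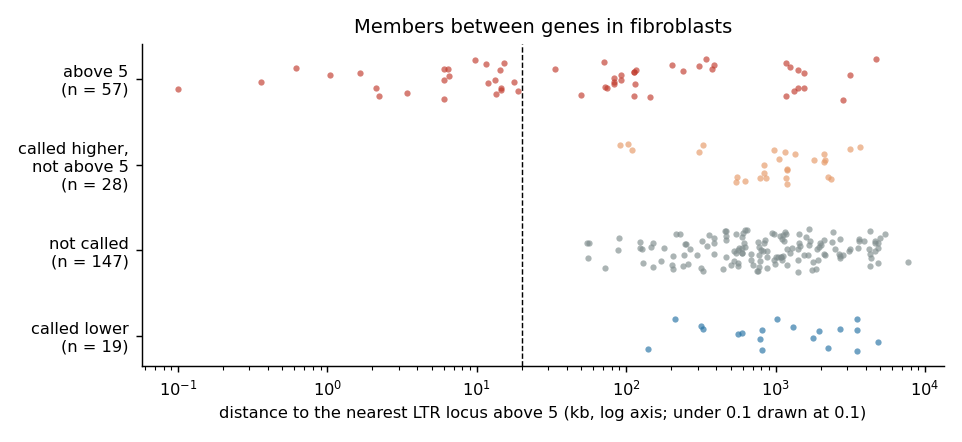
Distance in kb (log axis) from each intergenic member tested in fibroblasts to the nearest LTR locus past a log2 change of 5, with members grouped by their own call (points are loci, spread vertically only to separate them). The dashed line marks 20 kb, which 24 of the 57 members past 5 lie within and none of the 28, 147 and 19 members of the other groups. All 57 had no WT read and passed the count minimum through Lsh-/- reads.

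The flanking intervals lay 10 to 11 kb from each locus. Beside the 57 intergenic members past 5, 42 flanking intervals had 10 or more counts, and 40 of them (95.2%) were called higher and none lower, with 33 WT and 10400 Lsh-/- counts in sum. These members had no WT read and passed the count minimum through Lsh-/- reads, so their intervals are a description. Over all flanking intervals of LINE loci 15.3% were called higher and 8.64% lower. Beside all 85 intergenic members called higher, 64.0% of 75 intervals were higher, against 22.3% of 130 beside intronic and 38.5% of 26 beside exonic members called higher, and 4.55% of 1913 beside members not called. The 85 include the 57 past 5, whose intervals gave 40 of the 48 higher ones. The intergenic share is therefore a description too. Beside the 174 members called lower, 15.1% of 205 intervals were lower and 2.93% higher. In embryos 8.33% of 564 intervals beside members called higher were higher and 7.45% lower, and 78 of 706 beside members called lower were lower, with 9.43% higher and 9.73% lower over all intervals. Intervals of neighbouring members overlap, so they are not independent of each other.

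In embryos the 4 members called higher with the most counts were 2 in 3′ untranslated regions and 2 between genes. The L1M2 element (chr1:171881302-171881680) in the 3′ untranslated region of Hsd17b7, an enzyme of cholesterol synthesis, had 296 WT and 694 Lsh-/- embryo counts, a log2 ratio of 1.28 (1.09 to 1.48), and 100 and 116 in fibroblasts. The L1MEg element (chr1:108620968-108621126) in that of Kdsr, which acts in sphingolipid synthesis, went from 176 to 345, a ratio of 1.02 (0.76 to 1.30) that stood at 0.97 with DESeq2's size factors. The L1ME2 element (chr9:42059642-42060015) 2245 bp from Sc5d, a sterol desaturase, went from 101 to 293, a ratio of 1.59 (1.26 to 1.93), and its downstream interval from 147 to 334, a ratio of 1.24. In fibroblasts these held 79 and 82, and 44 and 45 counts. The L1M5 element near Snrpn held no count in WT embryos and 326 in Lsh-/- embryos, at least 112.8-fold higher, and 0 and 32 in fibroblasts, at least 10.3-fold higher. It lay 204711 bp from Snrpn, an imprinted gene, and 18783 bp from an IAPLTR1a_Mm element past 5 in both tissues. An L1MEg element (chr7:66452599-66452779) 31343 bp from Ube3a, chosen after its values were seen, held 0 and 12 counts in fibroblasts and 5 and 14 in embryos. The HAL1-3A_ME element (chr12:116158611-116158759) 657450 bp from Gm7112 held 0 and 32 counts in embryos, at least 11.1-fold higher, and 0 and 11 in fibroblasts, at least 3.55-fold higher.

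The members called lower in embryos with the most counts included 1 between genes. The L1MEe element (chr2:33507474-33507651) 11443 bp from Lmx1b, a homeodomain factor, had 669 WT and 243 Lsh-/- embryo counts, a log2 ratio of -1.41 (-1.62 to -1.19), and 371 and 287 in fibroblasts. In embryos its upstream interval held 60 and 46 counts and its downstream interval 18 and 3, ratios of -0.33 and -2.48. The L1ME3 element (chr9:111181225-111181655) in the 3′ untranslated region of Epm2aip1 went from 577 to 206, a ratio of -1.43 (-1.67 to -1.20), and its upstream interval from 59 to 25. In fibroblasts it held 153 and 192 counts. The L1ME1 element (chr7:107462502-107462600) in an intron of P4ha3, a collagen prolyl hydroxylase subunit, went from 117 to 54, a ratio of -1.06, and the HAL1 element (chr5:123010652-123010755) in a coding exon of Ift81, of the intraflagellar transport machinery, from 103 to 41, a ratio of -1.27. The L1MEg element in the exon of the lincRNA Gm17431 held 61 counts and 1, a log2 ratio of -5.71 with a counting interval of -11.20 to -3.34, but 141 and 104 in fibroblasts. The L1ME4a element in the intron of Mon1a, a factor of vesicle traffic, went from 45 counts to 0, at least 14.4-fold lower, and held 3 and 7 in fibroblasts.

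**Figure D5:**
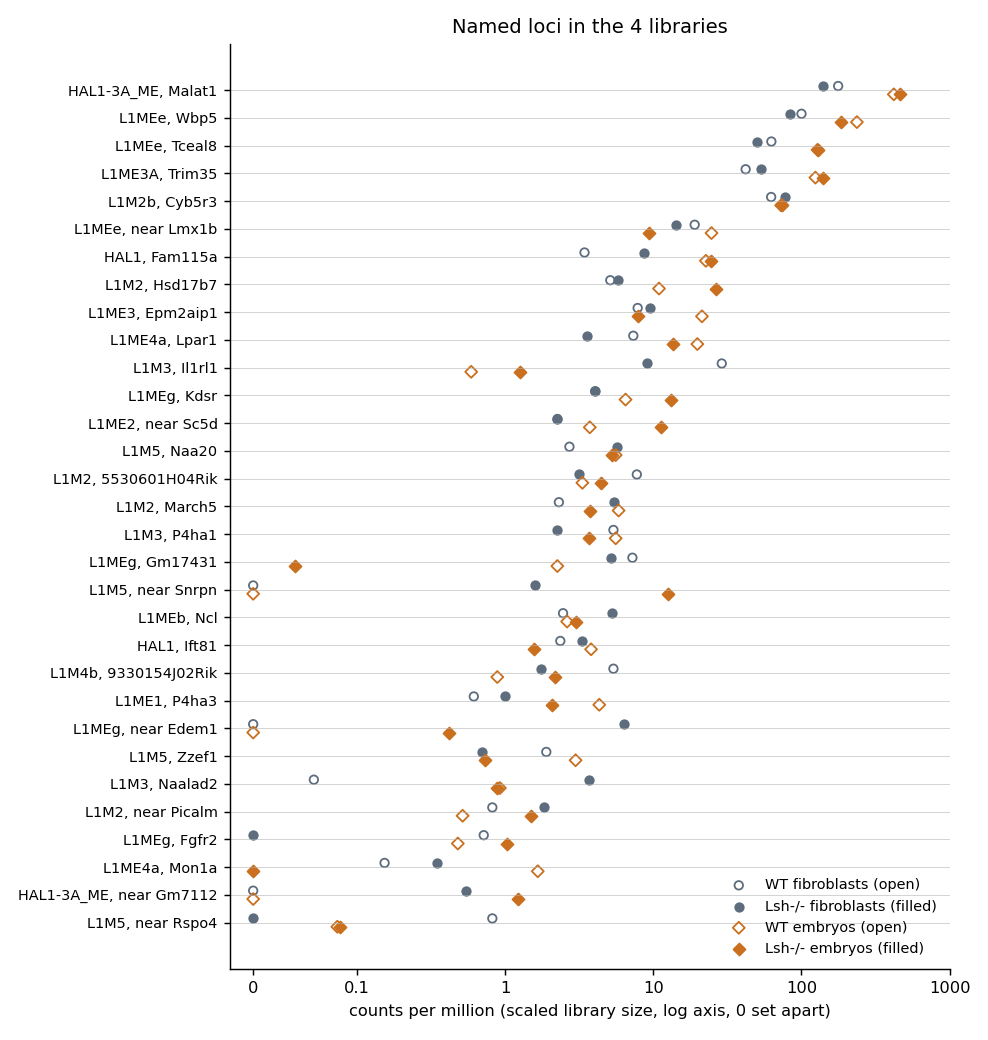
CPM (log axis, 0 set apart) of the named loci in the 4 libraries, with circles for fibroblasts and diamonds for embryos, open for WT and filled for Lsh-/-, 1 library each. The L1M5 element near Snrpn stands at 0 in both WT libraries and at 1.59 and 12.5 in the Lsh-/- libraries, while the HAL1-3A_ME element of Malat1 lies between 140.0 and 461.4 in all 4.

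Calls in both tissues went the same way as often as opposite ways. Of 1689 members with enough counts in both, 283 (16.8%) were called in fibroblasts and 355 (21.0%) in embryos. Both calls fell on 74 members, 26.1% of the fibroblast and 20.8% of the embryo calls, beside 28.5% and 24.4% for all LINE loci. Of the 74, 37 went in the same direction, 17 higher and 20 lower, and 37 in opposite directions, beside 370 and 221 for all LINE loci. The 4 with the most counts that went the same way were the L1M5 element near Snrpn, the L1MEg element on chromosome 6, an L1M5 element (chr11:72731433-72731577) in an exon of Zzef1 and the L1M2 element near Picalm. The Zzef1 element went from 37 to 14 counts in fibroblasts, a log2 ratio of -1.44, and from 81 to 19 in embryos, a ratio of -2.03, but with the 6-table total the fibroblast ratio was -0.77 and no longer called. The Picalm element, 5418 bp from that clathrin assembly gene, went from 16 to 37, a ratio of 1.16 (0.28 to 2.11), and from 14 to 39, a ratio of 1.52 (0.62 to 2.53). A log2 change of 5 was passed upwards in both tissues by 4 members. The 2 with the most counts that went opposite ways were the Il1rl1 element and an L1M4b element (chr9:85714245-85715555) in the 3′ untranslated region of 9330154J02Rik. The first held 565 and 183 counts in fibroblasts but 16 and 33 in embryos, and the second 105 and 35 in fibroblasts but 24 and 57 in embryos. With the 6-table total neither was called in fibroblasts.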

How the data were processed

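RNA-seq libraries were strand-specific (dUTP) and paired-end, and the authors aligned reads to mm9 with TopHat 1.4.0, kept unique hits and joined them to RepeatMasker repeats. The deposited values are raw counts per locus, in tables for LINE and LTR elements and for intervals 10 to 11 kb to either side, whose position was checked on the tables. Whether the join used strand or counted pairs once was not given in the sources used here. From the deposited counts, library sizes were scaled per tissue pair with the trimmed mean of M-values in edgeR 4.0.16 over the flanking intervals of LINE-1 loci. Log2 ratios used a prior count of 0.125, a minimum of 10 counts in the pair, and exact (Clopper-Pearson) 95% intervals. With 1 library per group no test was made, and the exact test of edgeR, which then needs an assumed coefficient of variation (0.4), with Benjamini-Hochberg adjustment (threshold 0.05) was an alternative only. Zero counts were set against a floor of 3 counts per library. The calling step was tested on simulated data.

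Loci were placed with GENCODE vM1 and sequences read from NCBIM37, using Python 3.11.15, pandas 2.3.3, SciPy 1.17.1 and R 4.3.3. Starts were written 1-based, and 20 members on unplaced sequences had no context. The members, the marker lists and the tests were chosen with earlier results of these data known. Named loci were, per tissue, the 4 with the most counts, the 4 called higher and 4 called lower with the most counts, the called locus with the most counts of each kind, the 2 past 5 and 2 past -5 with the most counts, and across tissues the 4 called alike and 2 called oppositely. Alternatives were other scalings (DESeq2 1.42.0 size factors, table totals), priors, count minimums and limits, 1 locus per host gene, and leaving out chromosomes X and Y or exonic loci. Distance to LTR loci, stretches and sums by context were added after the data were seen. Some named loci and markers are not reported here.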

Additional observations from a re-analysis of the deposited data

Results flagged for a closer look

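Some members were called in opposite directions in fibroblasts and embryos, and the difference between the tissues was not tested, since each group held 1 library. This held for 37 members. The L1M3 element of Il1rl1 stood at a log2 ratio of -1.67 in fibroblasts and 1.09 in embryos. The L1M4b element of 9330154J02Rik stood at -1.63 and 1.30. With the 6-table total as the library size the fibroblast ratios were -0.99 for Il1rl1 and -0.95 for 9330154J02Rik, and neither was called. The L1MEg element of Fgfr2 was at least 4.82-fold lower in fibroblasts and at 1.10 on the log2 scale in embryos, where it held 13 and 27 counts.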

How the results depend on the processing

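No paired analysis was possible because each group held 1 library. In fibroblasts, scaling by the 6-table total moved the median of all LINE loci by 0.67 and the LINE table total by 0.11. The members' median became 0.11 (LINE table total), 0.68 (6-table total) and -0.60 (no count filter). Higher and lower calls became 485 and 44 (6-table total, 91.7% higher against 57.5%), 375 and 307 (no filter), 35 and 21 (minimum of 50), 79 and 7 (past 5), 380 and 375 (past 1 without the interval) and 42 and 1 (exact test). Summed counts became, with DESeq2 size factors, the LINE table total and the 6-table total, -0.0266, 0.0402 and 0.606 over all members, 0.51, 0.57 and 1.14 between genes, -0.19, -0.13 and 0.44 in introns and -0.0072, 0.0596 and 0.625 in exons. Without members near LTR loci past 5 the sum was -0.0958 over all members and 0.33 between genes, and -0.0195 in exons without the Malat1 locus. In embryos the median became -0.11 (DESeq2) and -0.36 (no filter). Calls became 883 and 993 (no filter), 51 and 50 (minimum of 50), 289 and 312 (1 per host gene), 295 and 310 (1 per stretch), 80 and 116 (past 5), 770 and 882 (past 1 without the interval) and 2 and 2 (exact test). Sums became -0.0859 (DESeq2), -0.00452 (LINE table total) and -0.0467 (without Malat1) over all members, -0.0248 (DESeq2), 0.0767 (without the top locus) and -0.0182 (without members near LTR loci) between genes, -0.13 (DESeq2) and -0.0485 (LINE table total) in introns, and -0.055 (DESeq2), 0.0263 (LINE table total) and -0.0309 (without Malat1) in exons. Of 315 recomputed values for named loci, 303 kept their call and direction or stayed uncalled. Kdsr in embryos (0.97, DESeq2) and Lpar1 in fibroblasts (-0.99, -0.92 and -0.36 under the 3 scalings) were no longer called. Under the 6-table total the fibroblast calls of Il1rl1 (-0.99), P4ha1 (-0.59), Zzef1 (-0.77), 9330154J02Rik (-0.95) and 5530601H04Rik (-0.61) were lost. Trim35 (1.03), Ift81 (1.17) and P4ha3 (1.36) were then called higher in fibroblasts. Apart from fewer loci tested or stricter limits, the cause was not tested. Most members held too few reads to be compared singly.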

Other observations

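Some host genes held 3 or more called members, a grouping made after the values were seen. The grouping was not made over all LINE loci. In fibroblasts the 3 tested members within Aim2, which encodes a sensor of cytosolic DNA, held 0 counts in WT and 78 in Lsh-/-. They passed the count minimum through Lsh-/- reads and could only be called higher, so their calls are a description. The 3 in Zzef1 were all called lower in fibroblasts, with 116 and 51 counts. In embryos 4 of 9 members within Loxl2, a lysyl oxidase-like enzyme, were called lower and none higher, with 222 counts in WT and 90 in Lsh-/- over the 9. Within the zinc finger gene Zfp617, 3 of 4 were called lower, with 47 and 9 counts. Reads of an element and of its host transcript cannot be told apart here.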
